A study of Homo sapiens with 12 samples.

Results

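The 10 apolipoprotein genes APOA1, APOA2, APOA4, APOA5, APOB, APOC1, APOC3, APOE, APOH and APOM were examined among the 23922 genes in the deposited tables. They were taken by name from the apolipoprotein family and matched by Entrez gene number, and all 10 were in the tables and passed the filter on low counts. The RNA came from cells of the H9 line, an established line of human embryonic stem cells, that were guided toward hepatocytes by a published protocol. The 12 libraries formed 6 groups of 2: day 19 with 30 nM T4, day 19 with 30 nM T3, day 19 with 0.1% DMSO, day 7 with 30 nM T4, day 7 with 30 nM T3, and day 7 with 0.1% DMSO. All groups thus came from the same cell line, and the labels name no genetic change. The labels call the cells of day 7 hepatoblasts and those of day 19 hepatocytes, and the series concerns genes that respond to thyroid hormones as human hepatocytes form. When the hormones were added, for how long, and in which vehicle was not given. The labels do not name separate cultures for paired libraries within a group, and the p-values therefore reflect library-to-library spread that may be technical only.

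Apolipoproteins coat the lipid particles of blood plasma. APOB is the backbone of the triglyceride-rich and cholesterol-rich particles that liver and intestine secrete, and APOA1 is the backbone of high-density lipoprotein (HDL). The smaller members move between particles, where they steer lipases, lipid transfer and uptake by receptors. Thyroid hormones act through the nuclear receptors THRA and THRB. T3 binds them more tightly than T4, and T4 differs from T3 by an additional iodine that deiodinases can remove.

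Genes of the family lie in few places. On the GRCh38 assembly, chromosome 11 carries APOA5 (116789367 to 116792420), APOA4 (116820700 to 116823304), APOC3 (116829907 to 116833072) and APOA1 (116835751 to 116837622) within 48256 bases. Chromosome 19 carries APOE (44905796 to 44909393) next to APOC1 (44914325 to 44919346). APOA2 lies on chromosome 1 (161222292 to 161223628), APOB on chromosome 2 (21001429 to 21044073), APOM on chromosome 6 (31652404 to 31658210) and APOH on chromosome 17 (66212033 to 66229415). All 10 are protein-coding. APOM overlaps BAG6 and APOA1 overlaps APOA1-AS in this annotation, and the strand setting of the authors' counting was not given, so reads of these overlaps cannot be assigned with certainty. APOC1 has a near-identical pseudogene copy, APOC1P1, so its counts are likewise uncertain.

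RefSeq promoter windows of GRCh38.p14, from 250 bases before to 50 after an annotated start, were matched for 7 of the 10 genes (10 windows). The windows of 3 genes are printed, 5′ to 3′ on the strand of the gene: APOA4 and APOA5 are neighbours that responded to hormone by very different amounts at day 19, and APOM alone of the 10 was lower at day 19 than at day 7 in DMSO. Capitals mark matches, on either strand, to any of 8 motifs searched. These were the nuclear receptor motif AGGTCA, its repeats AGGTCANAGGTCA and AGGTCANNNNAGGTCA (which contain it), the HNF4 type CAAAGTCCA, the HNF1 motif GTTAAT, the forkhead motif TGTTTAC, the TATA box TATAAA and the CCAAT box CCAAT.
APOA4, chr11:116823255-116823554, minus strand: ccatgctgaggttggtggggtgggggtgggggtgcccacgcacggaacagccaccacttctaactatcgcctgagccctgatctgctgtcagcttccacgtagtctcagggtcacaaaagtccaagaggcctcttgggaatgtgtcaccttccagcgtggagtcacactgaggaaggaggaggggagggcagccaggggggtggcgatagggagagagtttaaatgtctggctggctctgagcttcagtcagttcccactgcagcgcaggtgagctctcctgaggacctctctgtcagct
APOA5, chr11:116792371-116792670, minus strand: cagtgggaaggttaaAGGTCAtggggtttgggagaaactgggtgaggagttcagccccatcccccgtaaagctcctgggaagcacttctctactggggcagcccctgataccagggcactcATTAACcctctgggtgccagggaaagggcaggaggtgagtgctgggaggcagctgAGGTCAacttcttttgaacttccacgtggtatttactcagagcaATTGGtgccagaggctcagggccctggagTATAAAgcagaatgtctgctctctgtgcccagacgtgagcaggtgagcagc
APOM, chr6:31655644-31655943, plus strand: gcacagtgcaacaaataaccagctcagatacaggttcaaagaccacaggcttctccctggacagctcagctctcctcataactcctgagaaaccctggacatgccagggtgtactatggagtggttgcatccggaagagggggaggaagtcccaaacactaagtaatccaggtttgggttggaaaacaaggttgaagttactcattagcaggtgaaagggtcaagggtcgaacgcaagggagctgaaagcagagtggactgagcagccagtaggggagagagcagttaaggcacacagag
The APOA5 window held AGGTCA at 2 places (and an alternative APOA5 window, not printed, at 1), and the HNF1 motif, the CCAAT box and the TATA box at 1 place each. The windows of APOA4 and APOM held none of the 8 motifs. The APOM window lies around an annotated start inside the gene span given above, and no window at the outer end of that span was matched. AGGTCA occurred in 13.8% of all 35116 RefSeq windows of this length, the HNF1 motif in 6.88%, the TATA box in 11.5% and the CCAAT box in 34.6%. Among the windows not printed, APOA2 held the forkhead motif (3.42% of all windows), APOH the HNF1 motif and APOE the CCAAT box. The repeats AGGTCANAGGTCA (0.0228% of all windows) and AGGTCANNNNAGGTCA (0.0199%) and the motif CAAAGTCCA (0.384%) were in none of the 10 windows. A match describes letters, not a bound site, and its absence from a window says nothing about a factor.

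Total counts ranged from 18363548 to 19306147 per library. Of the 16 hepatocyte markers, all had counts on both days. Their summed level at day 19 was 7383 to 8020 CPM (read counts scaled by library size with TMM factors) with T4, 3782 to 5330 CPM with T3 and 51250 to 55610 CPM with DMSO, and at day 7 with DMSO it was 2262 to 2312 CPM. In the DMSO libraries of day 19, the fetal plasma protein AFP had 32930 and 35470 CPM, while ALB, which encodes albumin, had 17.8 and 20.8 CPM. The cells labelled hepatocytes thus had a high level of AFP and little ALB. Enterocytes of the small intestine also make APOA1, APOA4, APOB and APOC3, and their 15 markers moved too. The enterocyte sum at day 19 was 1406 to 1691 CPM with T4, 755 to 946 CPM with T3 and 3423 to 3523 CPM with DMSO, of which LCT, the intestinal lactase, gave 1538 and 1379 CPM in DMSO. Macrophages and astrocytes make APOE, and macrophages APOC1. Macrophage markers summed to 157 to 163 CPM with T4, 182 to 209 CPM with T3 and 138 to 139 CPM with DMSO at day 19, but of 6 tested only CSF1R was higher with either hormone, while CD68, CD163 and AIF1 were lower (median log2 fold change -0.78 with T4 and -0.94 with T3). Neural markers summed to 465 to 469 CPM, 527 to 549 CPM and 316 to 329 CPM in the same order of groups, where 4 of 8 tested were higher (among them TUBB3 and SLC1A3) and 3 lower (AQP4, NES and NCAM1) with either hormone, at medians of -0.04 with T4 and -0.11 with T3. With T4, 14 of the 16 hepatocyte markers and 13 of the 15 enterocyte markers were lower than with DMSO at day 19 (21.9% of all tested genes were lower), and with T3 15 and 13 were (27.3%). The enterocyte factor CDX1 was higher with either hormone. Mesenchymal markers summed to 3700 to 4120 CPM with T4, 2731 to 3617 CPM with T3 and 6847 to 7029 CPM with DMSO. Pluripotency markers summed to 299 to 302 CPM, 302 to 331 CPM and 212 to 221 CPM, and endothelial markers to 161 to 183 CPM, 163 to 167 CPM and 177 to 184 CPM, in the same order of groups. Of the 10 endothelial markers, 4 were lower with T4 and 7 with T3 (medians -0.40 and -0.72), and CDH5 was higher with both. The part of these markers in the results was not tested. In such bulk samples, fewer cells of a type and less RNA per cell cannot be told apart.

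Per unit of transcript length, 5 of the 10 genes were among the most abundant of all genes in DMSO at day 19. On the FPKM scale of the authors, APOA1 ranked 1 of all genes with 14502 ± 839 FPKM (SD, n = 2) and APOA4 ranked 3 with 14097 ± 709 FPKM. The libraries of these genes overlapped. APOC3 (6277 ± 675 FPKM), APOE (4408 ± 230 FPKM) and APOA2 (3263 ± 179 FPKM) came next, at ranks 6, 7 and 9, with no overlap between neighbours. APOC1 (495 ± 46.9 FPKM) and APOB (333 ± 58.7 FPKM) were a tier lower, and APOA5 (16.9 ± 0.643 FPKM), APOM (12.8 ± 0.354 FPKM) and APOH (6.12 ± 0.403 FPKM) formed a low tier, again without overlap between neighbours.

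With hormone at day 19 the order differed. With T4, APOA4 led at 3312 ± 130 FPKM, followed by APOA1 (2717 ± 133 FPKM) and APOE (2639.5 ± 67.3 FPKM), whose libraries overlapped. With T3, APOE led at 1928 ± 237 FPKM, then APOA4 at 1472 ± 197 FPKM and APOA2 at 1308 ± 417 FPKM, which overlapped, and APOA1 stood at 846 ± 163 FPKM. The 10 genes together took 1.25% and 1.32% of the counts in the T4 libraries of day 19, 0.575% and 0.722% with T3 and 4.75% and 4.99% with DMSO. At day 7 their share was 0.59% to 0.743% in all 6 libraries. APOE (2802 ± 29.8 FPKM) and APOA1 (2446 ± 56.5 FPKM) led in DMSO at day 7, at ranks 11 and 20 of all genes, and APOH was listed with 0 counts there.

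**Figure D1:**
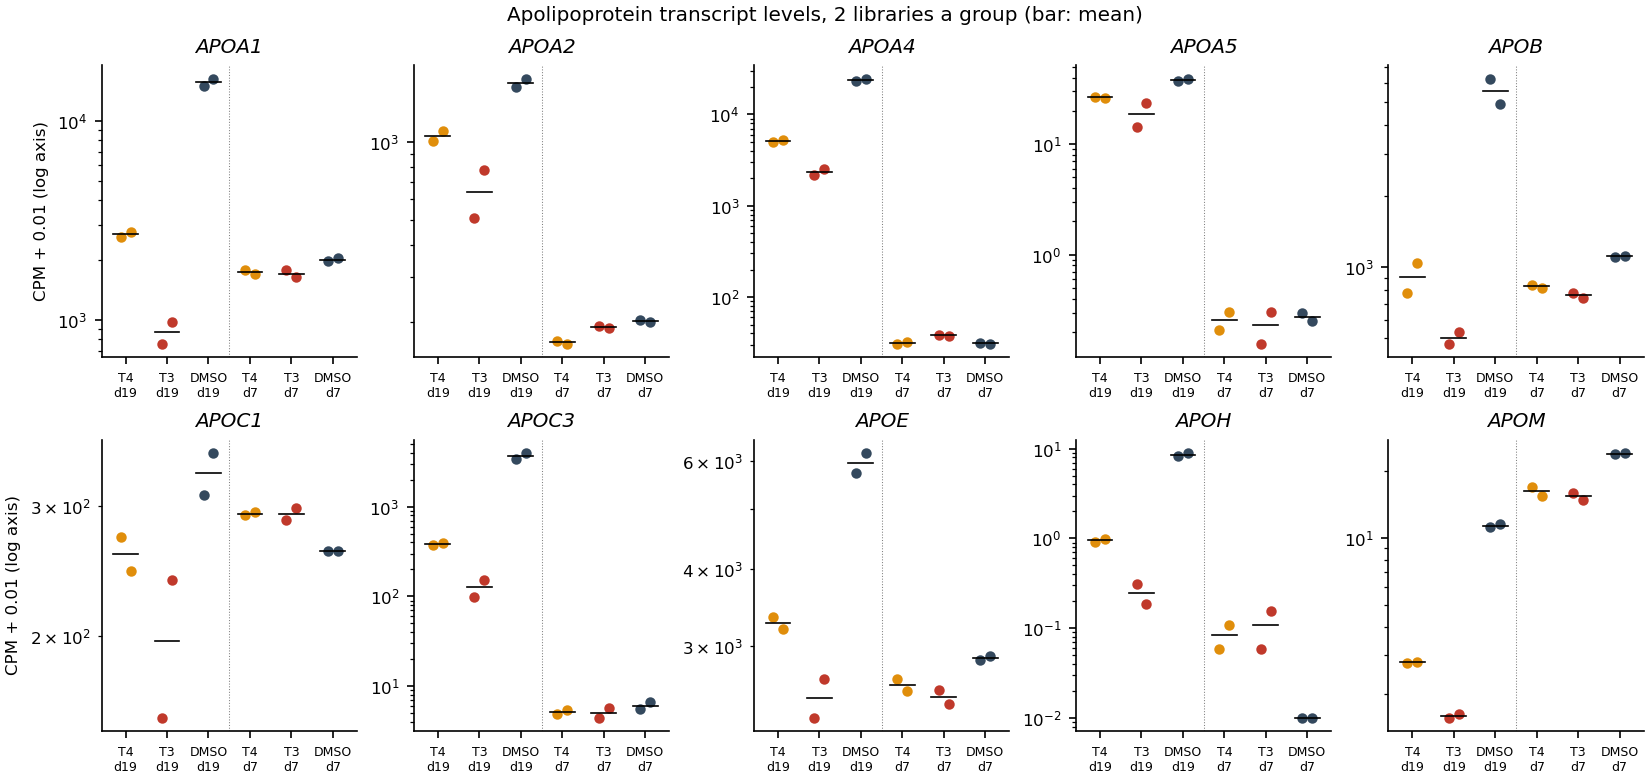
Level of each of the 10 genes in all 12 libraries, as CPM after TMM scaling plus 0.01 on a log axis that differs between panels (points: libraries, bars: means of 2, d19 and d7: days). At day 19 the DMSO libraries stand above all T4 and T3 libraries in every panel; in the APOM panel the day 7 libraries stand highest.

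Between day 7 and day 19 in DMSO, 9 of the 10 genes rose and APOM fell, at an adjusted p of at most 0.05. Changes were common in this comparison, with 72.4% of the 18101 tested genes called (37.6% higher, 34.9% lower). The median log2 fold change of the 10 genes was 3.02, against -0.0013 over all tested genes. On this scale, 1 unit is a factor of 2.

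APOA4, APOC3 and APOA5 of the chromosome 11 cluster and APOH gave the steepest rises. APOA4, which travels on chylomicrons and HDL and is made mainly by the intestine in adult humans, had 23024 and 24748 CPM at day 19, against 31.3 and 31.0 CPM at day 7 (log2 fold change 9.58, SE 0.0989, adjusted p = 6.44e-17). APOC3, an inhibitor of lipoprotein lipase and of particle uptake, had 3426 and 3994 CPM at day 19 and 5.49 and 6.59 CPM at day 7 (9.26, SE 0.207). Both genes thus had a low level at day 7 and were among the leading genes at day 19. APOA5, which promotes lipolysis and keeps plasma triglyceride low, had 37.1 and 39.2 CPM at day 19, against 0.289 and 0.24 CPM at day 7, where it rested on 6 and 5 counts (7.13, SE 0.296). APOA1 lies in the same cluster but was already high at day 7. It had 15073 and 16375 CPM at day 19, against 1981 and 2041 CPM at day 7 (2.97, SE 0.095). APOH, a phospholipid-binding plasma protein also called beta-2-glycoprotein I, had 135 and 148 counts at day 19 and 0 counts in both libraries of day 7. Against a floor of 3 counts over the group (0.0722 CPM), that is at least 119-fold higher.

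Outside that cluster, and APOH aside, the log2 fold changes lay between -1.07 and 3.07. APOA2, another main protein of HDL, had 1629 and 1762 CPM at day 19 and 204 and 199.9 CPM at day 7 (3.07, SE 0.141). APOB had 6278 and 4892 CPM at day 19, against 1104 and 1119 CPM at day 7 (2.33, SE 0.123). APOE, the ligand by which remnant particles are taken up, had 5739 and 6185 CPM at day 19, against 2849 and 2885 CPM at day 7 (1.06, SE 0.0671). In none of these did the libraries of the days overlap. APOC1, which inhibits the lipid transfer protein CETP, had 309.8 and 354 CPM at day 19, against 261 and 260.3 CPM at day 7 (0.35, SE 0.132, adjusted p = 0.0276). That call was lost without either DMSO library of day 7 (adjusted p = 0.0942 and 0.0951) and without replicate 2 of day 19 (0.168), and also with DESeq2 (0.0941) and with limma on FPKM (a log2 fold change of 0.0044, 0.982). On the log2(FPKM + 0.1) scale of limma, the median over all tested genes was itself -0.3754, against -0.0013 in the fit on counts. The limma value of APOC1 thus lay above that median. APOM, a lipocalin that carries sphingosine-1-phosphate on HDL, had 11.1 and 11.5 CPM at day 19, against 23.6 and 24.0 CPM at day 7, and fell by 1.07 on the log2 scale (SE 0.0941, adjusted p = 9.07e-08).

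At day 19, all 10 genes were lower with T3 than with DMSO, in a comparison where 52.3% of all tested genes were called, 25.1% higher and 27.3% lower. Their median log2 fold change was -3.08, against -0.03 over all tested genes. In none of the 10 did the T3 and DMSO libraries overlap. The sizes ranged from -5.14 for APOH to -0.75 for APOC1.

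Among the structural proteins of particles, APOA1 had 760.2 and 975 CPM with T3, against 15073 and 16375 CPM with DMSO (log2 fold change -4.18, SE 0.101, adjusted p = 6.58e-13). This was 18.1-fold lower, and both T3 libraries were below every library of day 7. APOB had 475 and 530.1 CPM with T3, against 6278 and 4892 CPM with DMSO (-3.47, SE 0.13). APOA4 had 2169 and 2552 CPM with T3, against 23024 and 24748 CPM with DMSO (-3.34, SE 0.0731). APOA2 was reduced less, with 506 and 779 CPM under T3 and 1629 and 1762 CPM under DMSO (-1.40, SE 0.132).

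Of the regulators of lipolysis, APOC3 had 99.7 and 154 CPM with T3, against 3426 and 3994 CPM with DMSO (-4.87, SE 0.158), which is 29.2-fold lower. Its neighbour APOA5, which acts in the opposite direction on lipolysis, had 14.2 and 23.4 CPM with T3, against 37.1 and 39.2 CPM with DMSO (-1.02, SE 0.158). APOC1 had 155 and 239 CPM with T3 and 309.8 and 354 CPM with DMSO (-0.75, SE 0.134, adjusted p = 0.000242). The 2 genes with the mildest reduction were thus APOC1 and APOA5. Without replicate 1 of T3 the APOC1 value was -0.48, still called.

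APOE had 2288 and 2647 CPM with T3, against 5739 and 6185 CPM with DMSO (-1.27, SE 0.0674). APOH was left with 5 and 3 counts with T3, against 135 and 148 counts with DMSO (-5.14, SE 0.338). APOM had 1.56 and 1.63 CPM with T3, against 11.1 and 11.5 CPM with DMSO (-2.83, SE 0.143). APOM thus was lowest in the T3 libraries of day 19, where even DMSO libraries were below those of day 7. Libraries of the T3 group at day 19 differed more from each other than those of other groups. The higher library exceeded the lower by a median of 1.23 times over 8 of the genes (1.54 at most), against medians of 1.015 to 1.085 in the other 5 groups, with APOA5 and APOH left out. All 10 calls held without either T3 library and without either DMSO library.

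With T4 at day 19, again all 10 genes were lower than with DMSO, where 42.8% of all tested genes were called, 21.0% higher and 21.9% lower. The T4 and T3 comparisons share the same 2 DMSO libraries and are not independent. The median log2 fold change of the 10 genes was -2.13, against 0.0005 over all tested genes. APOC3 fell most, to 375 and 393 CPM with T4, against 3426 and 3994 CPM with DMSO (-3.27, SE 0.145). APOH had 16 and 17 counts with T4, against 135 and 148 counts with DMSO (-3.18, SE 0.266).

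APOB had 781 and 1044 CPM with T4 and 6278 and 4892 CPM with DMSO (-2.61, SE 0.125). APOA1 had 2609 and 2775 CPM with T4, against 15073 and 16375 CPM with DMSO (-2.55, SE 0.0933). APOA4 had 5001 and 5249.8 CPM with T4, against 23024 and 24748 CPM with DMSO (-2.22, SE 0.0697). The RNA of each of these 3 particle proteins was several-fold lower with T4, and no library of one group reached the other. APOM had 2.74 and 2.79 CPM with T4, against 11.1 and 11.5 CPM with DMSO (-2.04, SE 0.127). APOE had 3335 and 3190.2 CPM with T4, against 5739 and 6185 CPM with DMSO (-0.87, SE 0.0668). APOA2 had 1013 and 1101 CPM with T4, against 1629 and 1762 CPM with DMSO (-0.68, SE 0.129).

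The mildest T4 changes were those of APOA5 and APOC1. APOA5 had 26.9 and 26.3 CPM with T4, against 37.1 and 39.2 CPM with DMSO (-0.52, SE 0.153, adjusted p = 0.0126), and APOC1 had 272 and 245 CPM with T4, against 309.8 and 354 CPM with DMSO (-0.36, SE 0.132, adjusted p = 0.0401). With limma on log2(FPKM + 0.1) the log2 fold changes were -0.392 for APOA5 and -0.2185 for APOC1. On that scale the median over all tested genes was 0.1233, against 0.0005 in the fit on counts. The T4 and DMSO libraries did not overlap for either gene, but each call was lost under several alternatives. APOA5 lost it without T4 replicate 1 (adjusted p = 0.0573), T4 replicate 2 (0.0612) or DMSO replicate 2 (0.0562), and with limma on FPKM (0.243). APOC1 lost it without T4 replicate 1 (0.067), T4 replicate 2 (0.195) or DMSO replicate 2 (0.21), with DESeq2 (0.157), with no filter on low counts (0.0559), with libraries of day 19 alone (0.122) and with limma on FPKM (0.295).

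**Figure D2:**
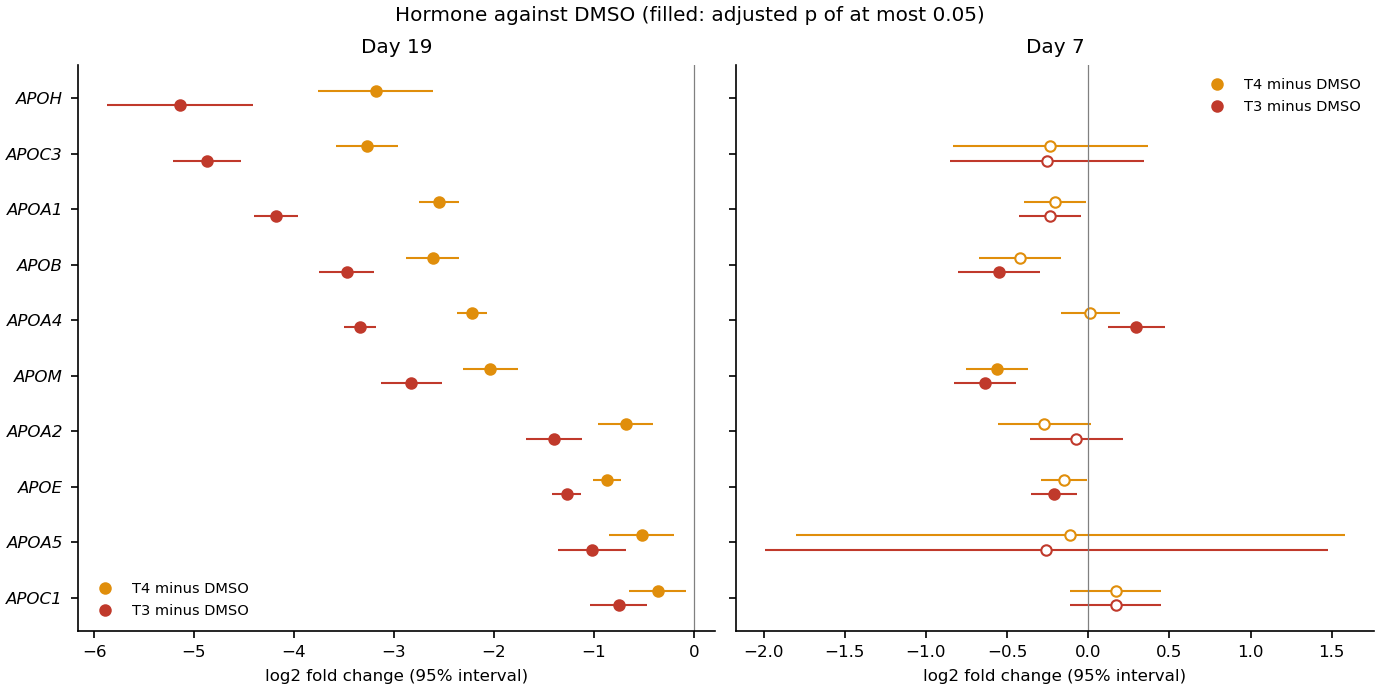
Log2 fold change with its 95% interval of T4 minus DMSO and T3 minus DMSO at day 19 (left) and day 7 (right) for the 10 genes, with filled points where the adjusted p was at most 0.05 (axes differ in range). At day 19 all 20 points lie below 0, and the T3 point lies left of the T4 point in every row; APOH is not drawn at day 7, where DMSO had 0 counts.

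T4 and T3 were compared directly at the same 30 nM, as 20 pairs of values, 10 on each day. At day 19, 8 of the 10 genes were higher with T4 than with T3, in a comparison where 15.7% of all tested genes were called, 7.42% higher and 8.31% lower. APOH had 16 and 17 counts with T4, against 5 and 3 counts with T3 (log2 difference 1.96, SE 0.453, interval 0.98 to 2.94, adjusted p = 0.0101). APOA1 had 2609 and 2775 CPM with T4, against 760.2 and 975 CPM with T3 (1.63, SE 0.0909, adjusted p = 1.69e-07). APOC3 had 375 and 393 CPM with T4, against 99.7 and 154 CPM with T3 (1.60, SE 0.141). Each library with T4 was above each library with T3 for all 3.

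Differences in the same direction were also called for APOA4 (1.12, SE 0.0677), APOB (0.86, SE 0.12), APOM (0.79, SE 0.18), APOA2 (0.72, SE 0.13) and APOE (0.40, SE 0.0665). APOA5 (0.50, 95% interval 0.15 to 0.84, adjusted p = 0.0509) and APOC1 (0.39, interval 0.11 to 0.68, adjusted p = 0.0625) did not pass. Both passed without T3 replicate 2, at 0.90 (adjusted p = 0.000105) and 0.74 (2e-05), and were at 0.18 (0.401) and 0.12 (0.461) without T3 replicate 1, and APOA5 also passed without the 10 most abundant genes (0.0497). Without T3 replicate 1 the APOA2 difference was 0.44, still called. The call for APOM was lost without T3 replicate 1 (adjusted p = 0.0906), T4 replicate 1 (0.053), T4 replicate 2 (0.0646) and with DESeq2 (0.0544), and that for APOH without T3 replicate 2 (1.63, adjusted p = 0.0573). At day 7, 0 of the 10 genes were called between T4 and T3, against 0.365% of all tested genes (0.0387% higher, 0.326% lower). APOA4 had the smallest p there, with a log2 difference of -0.28 (interval -0.46 to -0.11, unadjusted p = 0.00402, adjusted p = 0.286). APOA4 was the only gene of the 10 with an unadjusted p under 0.05 there, and DESeq2 and limma called 0 of the 10. The other log2 differences had intervals that held 0: APOA1 0.03 (-0.16 to 0.22), APOA2 -0.20 (-0.49 to 0.09), APOB 0.13 (-0.13 to 0.38), APOC1 0.00 (-0.28 to 0.28), APOE 0.06 (-0.08 to 0.20) and APOM 0.07 (-0.12 to 0.27). APOA5, APOC3 and APOH, with few counts at day 7, had wide intervals of -1.62 to 1.92, -0.60 to 0.64 and -2.23 to 1.46. With libraries of day 7 alone, 3 genes were called, of which APOA4 (-0.28) and APOA2 (-0.19) were lower and APOB (0.14) higher with T4. Over all genes, that fit called 435 of 17203.

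At day 7, fewer of the 10 genes were called against DMSO than at day 19. Replicate libraries differed less at day 7 (chi-square per gene 1.585 to 2.101) than at day 19 (4.96 to 8.625). The fit pools both days, so its tests at day 7 also carry spread of day 19, and a missing call is no evidence of no change. With T3, APOA4 was higher and APOB, APOE and APOM were lower than with DMSO, while 6 genes were not called. In that comparison 16.0% of all tested genes were called, 9.43% higher and 6.54% lower. With T4 only APOM was lower and 9 genes were not called, against 6.42% of all tested genes (3.90% higher, 2.52% lower). The medians over the 10 genes were -0.22 with T3 and -0.18 with T4, against 0.01 over all tested genes in both. These comparisons also share their DMSO libraries. Cell type markers differed here too: hepatocyte markers summed to 1708 to 1720 CPM with T4, 1632 to 1688 CPM with T3 and 2262 to 2312 CPM with DMSO, and pluripotency markers to 2655 to 2680 CPM, 3131 to 3162 CPM and 1806 to 1838 CPM. Endothelial markers summed to 86.6 to 89.0 CPM with T4, 84.1 to 86.1 CPM with T3 and 129 to 132 CPM with DMSO, with 7 of 10 lower under each hormone. The part of these markers was not tested.

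APOM had 16.9 and 15.4 CPM with T4 and 15.8 and 14.8 CPM with T3, against 23.6 and 24.0 CPM with DMSO. Its log2 fold changes were -0.56 for T4 (SE 0.0883, adjusted p = 0.00159) and -0.64 for T3 (SE 0.0888, adjusted p = 0.000232), and all hormone libraries were below all DMSO libraries. APOB had 843 and 819 CPM with T4 and 776 and 743 CPM with T3, against 1104 and 1119 CPM with DMSO. It passed with T3 (-0.55, SE 0.119, adjusted p = 0.00604) and missed with T4 (-0.42, SE 0.118, adjusted p = 0.0502), and T4 was called with DESeq2 size factors (0.0477) and without the 10 most abundant genes (0.0491). APOA4 had 38.7 and 37.9 CPM with T3, against 31.3 and 31.0 CPM with DMSO (0.30, SE 0.0826, adjusted p = 0.0246). Its direction at day 7 with T3 was thus the opposite of that at day 19. APOE had 2543 and 2414 CPM with T3, against 2849 and 2885 CPM with DMSO (-0.21, SE 0.0664, adjusted p = 0.0452).

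Genes not called with T3 were APOA1 (-0.23, interval -0.42 to -0.04, adjusted p = 0.0917), APOA2 (-0.07, interval -0.36 to 0.21), APOC1 (0.17, interval -0.11 to 0.45) and APOC3 (-0.25, interval -0.85 to 0.35), besides APOA5 and APOH. APOA1 was called with T3 by DESeq2 (-0.23, adjusted p = 0.0455) and by edgeR with a replicate block (-0.23, adjusted p = 0.0362). Genes not called with T4 were APOA1 (-0.20, interval -0.39 to -0.01), APOA2 (-0.27, interval -0.56 to 0.02), APOA4 (0.01, interval -0.17 to 0.19), APOC1 (0.17, interval -0.11 to 0.45), APOC3 (-0.23, interval -0.83 to 0.37) and APOE (-0.15, interval -0.29 to -0.01, adjusted p = 0.218), besides APOB, APOA5 and APOH. The libraries of APOC3 were at 4.91 and 5.36 CPM with T4, 4.41 and 5.72 CPM with T3 and 5.49 and 6.59 CPM with DMSO, and those of T3 and DMSO overlapped.

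Calls with T3 at day 7 depended on each library, and calls over all genes also fell when a library was left out. The log2 fold changes kept their direction, at 0.28 to 0.32 for APOA4, -0.58 to -0.51 for APOB and -0.25 to -0.17 for APOE. Without DMSO replicate 1 or T3 replicate 1, 2 genes were called, and without DMSO replicate 2 or T3 replicate 2, 1 gene, APOM. APOA4 lost its call without any of the 4 libraries (adjusted p = 0.0858 to 0.13), as did APOE (0.108 to 0.27), and APOB without DMSO replicate 2 (0.0508) or T3 replicate 2 (0.0651). A fit of the libraries of day 7 alone called 6 genes with T3 and 6 with T4. Over all genes, that fit called 5328 of 17203 with T3 and 3460 of 17203 with T4. In that fit APOA1 (-0.25) and APOC1 (0.16) were added for T3, and APOA1 (-0.21), APOA2 (-0.27), APOB (-0.42), APOC1 (0.17) and APOE (-0.15) for T4. APOH and APOA5 gave no value in that fit. APOH had 1 and 2 counts with T4, 1 and 3 counts with T3 and 0 counts with DMSO at day 7, and APOA5 had 3 to 6 counts in each of the 6 libraries, so that differences were not detectable at this depth.

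The hormone effect at day 19 was set against that at day 7 by a test of the difference itself. It was called, and more negative at day 19, for 9 of the 10 genes with T3 (38.0% of all tested genes called, 17.1% higher and 20.9% lower) and for 8 with T4 (27.7% called, 12.4% higher and 15.3% lower). APOA5 did not pass for T3 (-0.76, 95% interval -2.61 to 1.10), and APOA5 (-0.41, interval -2.19 to 1.37) and APOA2 (-0.41, interval -0.81 to -0.01, adjusted p = 0.121) did not pass for T4. Among the genes with counts in every library, APOC3 had the widest difference, -4.62 with T3 (SE 0.337) and -3.04 with T4. With limma on log2(FPKM + 0.1) the T4 difference of APOC1 was -0.3334. The median over all tested genes was 0.1397 on that scale, against -0.011 in the fit on counts. The T4 difference of APOC1 (-0.53, adjusted p = 0.0481) was lost under DESeq2 size factors (0.0535), without the filter (0.0654), with DESeq2 (0.173) and limma (0.292), and without either library of any of the 4 groups except DMSO replicate 1 of day 19 (0.0654 to 0.144). That of APOH, which has 0 counts in the day 7 DMSO group, was lost without T4 replicate 2 of day 7 (0.0655).

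Hormone-treated cells of day 19 were also compared with cells of day 7 given the same hormone. With T3, 4 genes were higher at day 19 (APOA5, APOA4, APOC3 and APOA2), 4 were lower (APOA1, APOB, APOC1 and APOM), and APOE and APOH did not pass, where 73.1% of all tested genes were called (35.2% higher, 37.9% lower). With T4, 7 genes were higher (APOA4, APOA5, APOC3, APOH, APOA2, APOA1 and APOE), APOM was lower, and APOB and APOC1 did not pass, where 71.9% were called (35.5% higher, 36.4% lower). APOA1 thus went in opposite directions. It had 2609 and 2775 CPM at day 19 against 1780.4 and 1709 CPM at day 7 with T4 (0.63, SE 0.0888), and 760.2 and 975 CPM at day 19 against 1774 and 1646 CPM at day 7 with T3 (-0.98, SE 0.0896).

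APOA4 and APOC3 remained far higher at day 19 with either hormone, by 7.35 and 6.22 log2 units with T4 and by 5.95 and 4.64 with T3. APOA5 rose by 6.72 with T4 and by 6.38 with T3, and APOA2 by 2.66 with T4 and 1.74 with T3. APOM was lower at day 19 with T4 (-2.54, SE 0.12) and with T3 (-3.26, SE 0.135), with 1.56 to 2.79 CPM in the hormone libraries of day 19 against 14.8 to 16.9 CPM in those of day 7. APOB fell with T3 (-0.60, SE 0.12) and was at 0.14 with T4 (interval -0.12 to 0.39), which became a call without T4 replicate 1 of day 19 (0.33, adjusted p = 0.0175). APOC1 fell with T3 (-0.57, SE 0.133), at -0.30 without T3 replicate 1 of day 19, and was at -0.18 with T4 (interval -0.46 to 0.10). APOH, with 16 and 17 counts at day 19 and 1 and 2 counts at day 7, rose with T4 (3.56, SE 0.546), and with T3 it was at 1.22 (interval -0.29 to 2.72) on 5 and 3 counts against 1 and 3. APOE was at -0.01 with T3 (interval -0.15 to 0.14, and 0.05 with DESeq2 size factors) and rose with T4 (0.33, SE 0.0665). With limma on the authors' FPKM, APOE was called with T3 (-0.30, adjusted p = 0.0109) and not with T4 (0.09, adjusted p = 0.378). On that scale the median over all tested genes was itself -0.33 with T3 and -0.26 with T4, so the T3 value of APOE lies near that median.

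**Figure D3:**
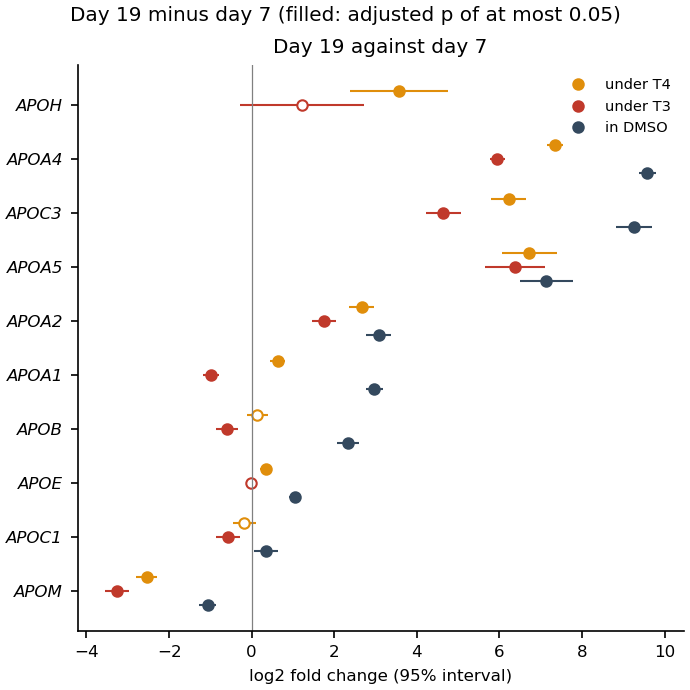
Log2 fold change with its 95% interval of day 19 minus day 7 under T4, T3 and DMSO for the 10 genes, with filled points where the adjusted p was at most 0.05. APOA4, APOC3 and APOA5 lie above 4 in all 3 series and APOM below -1 in all 3; APOA1 and APOB lie above 2 in DMSO and below 0 with T3. The DMSO value of APOH is not drawn, since day 7 had 0 counts.

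APOC1 was counted over 3 transcripts, of 588, 652 and 714 nt, and their shares differed between the days. The shares are RSEM estimates, and the test, edgeR's diffSpliceDGE on transcript counts, was chosen after these values were seen. The 652 nt transcript held 11.4% to 12.9% of the APOC1 counts at day 19 with T4, 7.33% to 8.04% with T3 and 15.4% to 16.1% with DMSO. At day 7 it held 43.8% to 44.9% with T4, 41.3% to 42.8% with T3 and 42.1% to 42.7% with DMSO. The 588 nt transcript held 86.0% to 87.4%, 90.9% and 80.8% to 82.5% at day 19 in the same groups, and 37.0% to 49.4% over the 6 libraries of day 7.

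Relative to the APOC1 gene as a whole, the 652 nt transcript was lower by 1.43 log2 units (a value of -1.43) at day 19 than at day 7 in DMSO. It was called by diffSpliceDGE (adjusted p = 0.000792), where 0.547% of the 27986 transcripts tested were called. In that comparison the 588 nt transcript (0.75, adjusted p = 0.0653) and the 714 nt transcript (-1.82, adjusted p = 0.136) were not called. Both were called with T4 (1.18 and -3.89) and with T3 (1.13 and -3.43). The change of the 652 nt transcript was -1.87 with T4 (adjusted p = 3.53e-05, 0.565% called) and -2.46 with T3 (adjusted p = 1.01e-06, 0.568% called). Between hormone and DMSO at day 19 that transcript was not called, at -0.37 with T4 (adjusted p = 1, 0.0679% called) and -1.04 with T3 (adjusted p = 0.0957, 0.0965% called). The gene as a whole had changed little between the days in DMSO, by 0.35.

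**Figure D4:**
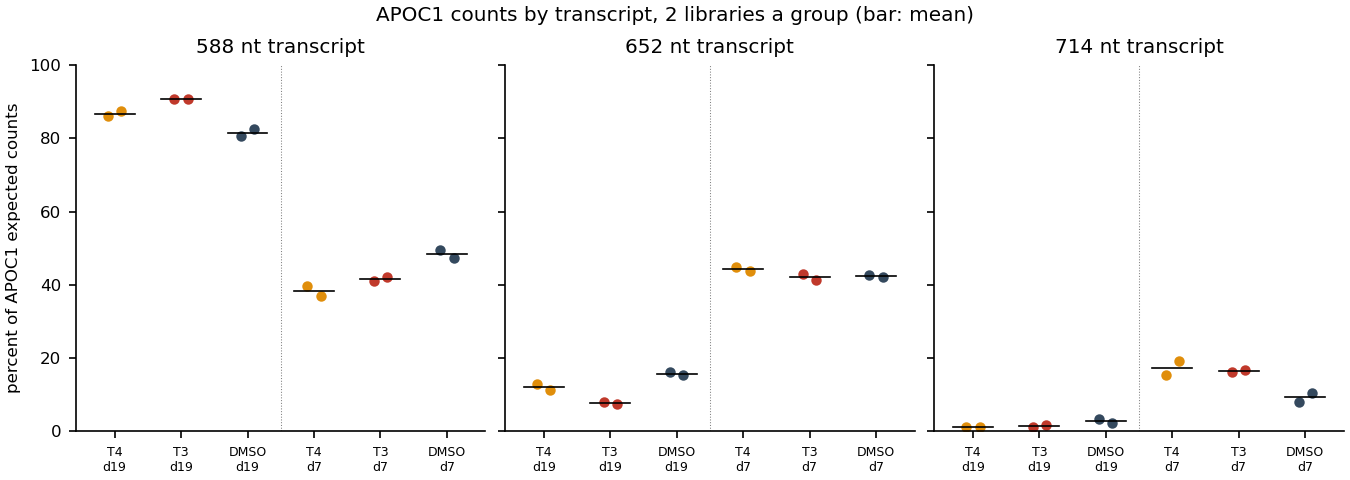
Share of the APOC1 expected counts assigned to the 588, 652 and 714 nt transcripts in each of the 12 libraries (points: libraries, bars: means of 2, d19 and d7: days). The 588 nt transcript holds over 80% in every library of day 19 and under 50% in every library of day 7.

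Genes next to the chromosome 11 and chromosome 19 members gave small or no changes at day 19. BUD13, ZPR1 and SIK3, which flank the APOA5 to APOA1 cluster, had log2 fold changes of -0.19, 0.21 and 0.11 with T4 and -0.25, 0.27 and 0.29 with T3. Within the cluster, the T3 values were -1.02 for APOA5, -3.34 for APOA4, -4.87 for APOC3 and -4.18 for APOA1. APOA5, nearest to ZPR1, was thus the least reduced of the 4. On chromosome 19, BCAM, NECTIN2, TOMM40, CLPTM1 and RELB lay between -0.24 and 0.20 with T4 and between -0.23 and 0.16 with T3. APOC2, the activator of lipoprotein lipase and no member of the set, lies in the same stretch and had 26.1 CPM with T4, 8.19 CPM with T3 and 168.6 CPM with DMSO at day 19 (log2 fold change -2.69 with T4 and -4.36 with T3).

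**Figure D5:**
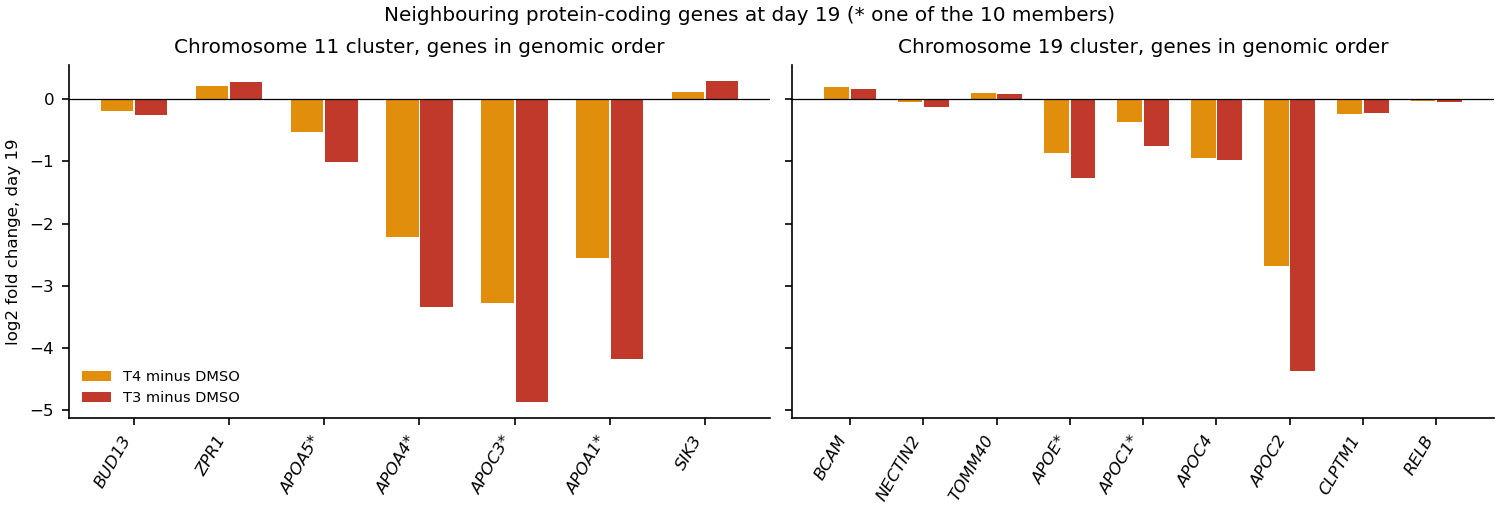
Log2 fold change of T4 minus DMSO and T3 minus DMSO at day 19 for the protein-coding genes around the chromosome 11 cluster (left) and the chromosome 19 cluster (right), in genomic order; stars mark the genes of the set. The starred genes and APOC2 reach below the flanking genes, which lie between -0.25 and 0.29; APOC4, with under 1 CPM in each group, was not called.

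Genes that load, remodel and take up lipoproteins were counted from lists, against backgrounds at day 19 of 21.0% higher and 21.9% lower with T4 and 25.1% higher and 27.3% lower with T3 over all tested genes. Of 15 tested genes of lipoprotein assembly and secretion, 12 were lower and 1 was higher at day 19, with T4 and with T3 alike in number. The median log2 fold change was -0.67 with T4 and -0.95 with T3. DGAT2, which makes triglyceride, fell most among the 4 named genes, with -3.38 for T4 and -4.71 for T3. CIDEB, which aids lipidation of particles, had -1.76 and -2.82, SOAT2, which esterifies cholesterol, -1.11 and -2.20, and DGAT1, another triglyceride-making enzyme, -1.39 and -1.95, each with T4 and then T3.

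Of 14 remodelling, lipase and efflux genes, 9 were lower and 2 higher with T4, and the counts were the same with T3 (42.8% of all tested genes were called with T4 and 52.3% with T3). PON1, an HDL-bound esterase, had -3.77 with T4 and -6.05 with T3, PON2 -1.17 and -1.59, and ABCA1, which loads cholesterol onto APOA1, -1.54 and -1.44. With T3, PON1 was at 0.0599 and 0.349 CPM, near the floor of 3 counts over the group (0.0885 CPM). The size of its T3 value is thus uncertain. ANGPTL4, an inhibitor of lipoprotein lipase, rose by 1.13 with T4 and by 1.46 with T3. Of 15 receptor and uptake genes, 9 were lower and 2 higher with T4 (background 21.9% and 21.0%), and 7 lower and 5 higher with T3 (27.3% and 25.1%). CUBN, which takes up APOA1 in kidney and intestine, had -2.02 and -3.05, its partner AMN -1.71 and -2.53, the HDL receptor SCARB1 -0.77 and -0.97, and SORL1 -1.16 and -1.41, with T4 and then T3.

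Of 27 transcription factors known to act on apolipoprotein genes, 13 were lower and 5 higher with T4, and 15 lower and 7 higher with T3, against 42.8% of all tested genes called with T4 and 52.3% with T3. The medians were -0.27 with T4 and -0.34 with T3. HNF4A, a main activator of APOA1, APOC3 and APOB, had -1.42 with T4 and -1.95 with T3. PPARA, a receptor for fatty acids, had -1.63 and -1.75, and NR1H3, a receptor for oxysterols, -1.42 and -1.52, while CEBPB, a factor of the acute phase, rose by 1.42 and 1.85. HNF4A was also lower at day 7, at -0.39 with T4 (adjusted p = 0.0112) and -0.52 with T3 (adjusted p = 0.00069). The part of these factors in the apolipoprotein changes was not tested. Between the days in DMSO, HNF4A fell by 0.55, CEBPB rose by 2.60, PPARA rose by 2.76 and NR1H3 rose by 1.60.

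Of 17 tested genes on a list of other apolipoproteins and proteins that bind or accompany them, 7 were lower and 4 higher with T4, and 6 lower and 3 higher with T3 at day 19. With 42.8% of all tested genes called with T4 and 52.3% with T3, the T3 count is near the background and says nothing particular about this list. LPA, the protein of lipoprotein(a), had -3.94 with T4 and -5.42 with T3, and APOC2 is given above. With T3, LPA was at 0.18 and 0.0582 CPM, near the floor of 3 counts over the group (0.0885 CPM). The size of its T3 value is thus uncertain. PCYOX1, an enzyme carried on low-density particles, had -0.53 and -0.52, and APOL1, an HDL protein of innate defence, rose by 1.63 and 2.01. The median log2 fold change of the 17 genes was -0.34 with T4 and -0.29 with T3.

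Profiles over the 12 libraries were compared by Pearson's r on log2 CPM, among other genes with at least 10 CPM in a group. The genes most like the average of the 10 were CDK18 (r = 0.9958), RBP4 (0.995), EBP (0.9944), ECI2 (0.9942) and AQP3 (0.9941). Of the 10 genes themselves, APOE was most like that average (0.9828), and APOC1 (0.4959) and APOM (-0.0417) were least like it. The closest profile was that of MOGAT3 for APOA1, AADAC for APOA2, MFGE8 for APOA4, ACSL1 for APOA5, KBTBD11 for APOB, ADAM23 for APOC1, PHGR1 for APOC3, SDC2 for APOE, LAMB3 for APOH and HSPA12A for APOM. The r of these pairs lay between 0.9484 and 0.9991 and is a description, since the libraries share days and treatments.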

How the data were processed

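RNA of 12 libraries in 6 groups of 2 was sequenced and quantified per transcript by the authors with HISAT, Bowtie2 and RSEM on hg38, per the submitters' processing notes, which give no role or version. The deposited files list RSEM expected counts and FPKM per RefSeq transcript. The FPKM values are the authors', scaled to transcript length and fragment total, and were used for levels across genes. Expected counts were summed per gene and rounded, and 18101 of 23922 genes passed edgeR's filterByExpr. Symbols were matched for 23801 genes from RefSeq tables (GRCh38.p14).

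edgeR 4.0.16 (R 4.3.3) quasi-likelihood tests with TMM scaling fitted all 12 libraries at once as group means (residual degrees of freedom 6, biological coefficient of variation 5.42%). Adjusted p-values are Benjamini-Hochberg over all genes tested, and a call is an adjusted p of at most 0.05. Every p is two-sided. CPM are rounded counts per 1000000 of the TMM-scaled library. Alternatives were DESeq2 1.42.0, DESeq2 size factors, no filter, limma 3.58.1 on log2(FPKM + 0.1) or log2(FPKM + 1), a replicate block, libraries of 1 day, leaving out the 10 most abundant genes and leaving out each library. Tables used Python 3.11.15, pandas 2.3.3 and numpy 2.4.6. The fit was tested on simulated data.

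Total counts were 18363548 to 19306147, and a floor of 3 counts covers counting error only. All 10 genes were named in every comparison, and of each pathway list the 4 genes with the smallest p for T3 against DMSO at day 19. Members and lists were chosen with earlier results of these data known. Whether equal replicate numbers mark paired libraries is not known. Correlations of their deviations between groups were -0.0778 to 0.125, so a shared replicate effect was small, which does not show that the libraries were unpaired.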

Additional observations from a re-analysis of the deposited data

Results flagged for a closer look

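The hormone effect at day 19 differed from that at day 7, by the edgeR interaction term, in 17 of 20 gene and hormone combinations, each with a negative value. Over all tested genes, 27.7% were called with T4 (15.3% lower) and 38.0% with T3 (20.9% lower). With T4 the differences in log2 units were -2.34 for APOA1, -2.23 for APOA4, -2.19 for APOB, -0.53 for APOC1, -3.04 for APOC3, -0.72 for APOE, -6.77 for APOH and -1.47 for APOM. With T3 they were -3.95 for APOA1, -1.33 for APOA2, -3.64 for APOA4, -2.93 for APOB, -0.92 for APOC1, -4.62 for APOC3, -1.06 for APOE, -9.12 for APOH and -2.19 for APOM. The APOH values depend on the prior count, because the DMSO group of day 7 had 0 counts. Both hormones were set against the same DMSO libraries. For APOA4 with T3 the difference joined effects of opposite direction, -3.34 at day 19 and 0.30 at day 7. Groups of 2 libraries are too small to look for outlying libraries.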

How the results depend on the processing

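Of 1321 recomputed values of single genes, 1216 kept their direction and side of the threshold, 55 lost a call, 24 gained one and 26 changed sign. None of the 76 called values changed sign under any alternative, and 11 of them lost their call under at least 1. All 10 genes stayed called for T3 at day 19 in every alternative that gave a count.

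The number of the 10 genes called for T3 at day 7 was 4, against 2 with limma on either pseudocount, 6 with libraries of 1 day and 1 to 2 without each library. For T3 at day 7 it was also 5 with DESeq2, and 3 in edgeR with no filter on low counts, where APOE was lost (adjusted p = 0.0587). For T4 at day 7 it was 1, against 2 with DESeq2 size factors and 6 with libraries of 1 day. Between T4 and T3 at day 7 it was 0, against 3 with libraries of 1 day. Leaving out each library gave 8 to 10 for T4 at day 19, 7 to 9 between T4 and T3 at day 19, 9 to 10 between the days in DMSO, 8 to 9 with T4 and 6 to 8 for the T4 difference between days. Whether equal replicate numbers mark paired libraries is not known. With a replicate block the counts were 5 for T3 and 1 for T4 at day 7, 10 and 10 at day 19, 0 and 10 between T4 and T3 at day 7 and day 19, 9, 8 and 8 between the days in DMSO, T3 and T4, and 9 and 9 for the differences between days. The block lost APOC1 between the days in DMSO (0.2489, adjusted p = 0.127) and added APOA5 (0.0332) and APOC1 (0.0364) between T4 and T3 at day 19, by edgeR.

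Sign changes, none in called values, were these. Between T4 and T3 at day 7, APOC1 became -0.0001 (DESeq2 size factors), -0.0006 (no filter), -0.0015 (DESeq2), -0.0009 (without the 10 most abundant genes) and -0.0278 to 0.0236 without a library. Without a library, APOA5 ranged from -0.2564 to 0.7061 there, APOC3 from -0.1557 to 0.2164, APOA1 from -0.0285 to 0.0832 and APOH from -0.9381 to 0.5207. Against DMSO at day 7, APOA5 without a library ranged from -0.8157 to 0.1468 with T3 and from -0.4175 to 0.1424 with T4, and APOA4 with T4 became -0.0142 and -0.0137 (limma) and -0.0134 to 0.0402 without a library. Between the days, APOE with T3 became 0.047 (DESeq2 size factors), 0.0454 (DESeq2) and -0.1166 to 0.0937 without a library, and APOB with T4 -0.1224 and -0.1204 (limma) and -0.0922 to 0.3307 without a library, of which the highest was called. For limma on log2(FPKM + 0.1), the median over all tested genes between the days with T4 was -0.2579, below the APOB value of -0.1224. The cause was not tested.

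Calls over all genes moved too. For T3 at day 7 they were 2891, against 1807 (DESeq2), 5328 (1 day) and 1308 to 1461 without a library. For T4 at day 7 they were 1162, against 756, 3460 and 371 to 393. Between T4 and T3 they were 66 at day 7, against 34 (limma, 0.1), 435 (1 day) and 19 to 26, and 2848 at day 19, against 1478 (1 day) and 1510 to 3322. On the FPKM scale the median of all genes between the days moved to -0.3754 in DMSO, -0.3286 with T3 and -0.2579 with T4, and the share of calls that were higher to 33.1%, 35.4% and 37.4%, against 51.9%, 48.1% and 49.4%. At day 19 that share moved to 67.2% for T4 against DMSO (48.9% in edgeR) and 68.1% for T4 against T3 (47.2%, and 36.1% with DESeq2), and in the differences between days to 57.8% for T3 (45.0%) and 68.3% for T4 (44.8%).

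With 2 libraries a group the spread rests on all 6 groups. Leaving out the 10 most abundant genes removes APOA1 and APOA4, the fits of day 7 alone gave no value for APOA5 and APOH, and DESeq2 gave no adjusted p for APOH between T4 and T3 at day 19. Depth limits APOA5 and APOH at day 7.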
